A study of Homo sapiens with 6 samples.

Results

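Of the 54613 probe sets on the arrays, 19 named 1 of 10 genes of fatty acid oxidation and no other gene, and these 19 probe sets are described here one by one. The genes are CPT1A, CPT2, SLC25A20, ACSL1, ACSL5, ACADM, ACADVL, HADHA, HADHB and ETFDH, and each of them was measured, CPT1A by 4 probe sets, HADHA by 3, CPT2, ACSL1, ACSL5 and ETFDH by 2 each, and SLC25A20, ACADM, ACADVL and HADHB by 1 each. A probe set is a group of short probes on the array that reads 1 transcript or a few transcripts of a gene, and 0 further probe sets named a member together with other genes. RNA came from LP-1/Cfz, a derivative of the human multiple myeloma line LP-1 made resistant to 12 nM of the proteasome inhibitor carfilzomib by growth in stepwise higher concentrations, and from the parental LP-1 line, which had undergone no such selection. LP-1/Cfz cells had been kept for 1 week without carfilzomib before RNA was taken, and both lines grew in RPMI medium, with 4% serum according to the labels and another share according to the methods. There were 3 LP-1/Cfz and 3 LP-1 arrays, 1 sample on each. LP-1/Cfz is a single derivative line, and nothing says that its 3 samples, or those of LP-1, were separate cultures, so a p-value here speaks only of how far these arrays spread, and part or all of that spread may be technical.

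Long-chain fatty acids enter a cell, are joined to coenzyme A by acyl-CoA synthetases (the ACSL enzymes), and are then carried into the mitochondrion by the carnitine shuttle. CPT1A, in the outer mitochondrial membrane, swaps coenzyme A for carnitine, and this is the controlled step, since malonyl-CoA, the building block of fatty acid synthesis, blocks it. SLC25A20 moves the acylcarnitine across the inner membrane and CPT2 swaps carnitine back for coenzyme A. In the matrix each turn of beta-oxidation shortens the chain, with ACADVL and ACADM as dehydrogenases for very long and medium chains and with the trifunctional protein, built of HADHA and HADHB, for the remaining steps on long chains. ETFDH passes the electrons from these dehydrogenases to ubiquinone in the respiratory chain. Plasma cells and the myeloma cells derived from them secrete much protein and draw on both glucose and fatty acids.

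The authors' values are log2 values that had been centred for each probe set on a baseline that is not stated. A value of -2 on this scale says only that an array lay below that baseline, and differences between arrays can be read, but neither the level of a gene nor its signal over background. LP-1/Cfz replicate 3 was the least like its group. Its interquartile range was 0.338, those of the remaining arrays 0.230 to 0.264, and limma gave it a weight of 0.389, against 0.951 to 1.51. It correlated at r = 0.903 with LP-1/Cfz replicate 1 and 0.891 with replicate 2, and these 2 correlated with each other at 0.941. Results that lean on LP-1/Cfz replicate 3 are given without it too. Of 10 plasma cell markers, SDC1, TNFRSF17 and MZB1 rose and SLAMF7 and CD38 fell, with log2 fold changes of -2.17 for SLAMF7 and -1.07 for CD38, while among markers of other cell types 1 of 10 for T and NK cells, 0 of 8 for myeloid cells and 0 of 10 for stromal and fat cells passed the test. On the centred scale the mean of the plasma cell markers was 0.087 to 0.15 on the LP-1/Cfz arrays and 0.29 to 0.33 on the LP-1 arrays, that of the T and NK markers -0.048 to 0.094 and 0.0052 to 0.017, that of the myeloid markers -0.12 to 0.073 and 0.0042 to 0.056, and that of the stromal and fat cell markers 0.074 to 0.14 and 0.021 to 0.040. Since levels are lost, whether a marker was present could not be checked, and the part of these shifts in the results below was not tested. Each array read a bulk culture, in which fewer cells with a transcript and less of it per cell cannot be told apart.

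CPT1A and ACSL5 were lower in LP-1/Cfz than in LP-1, and no other member passed the test. The arrays read RNA, and neither protein nor the rate of fatty acid oxidation. By oxygen consumption with and without etomoxir, which inhibits carnitine palmitoyltransferase-1, the paper reports that this rate was increased in LP-1/Cfz compared with LP-1. It also reports that etomoxir made LP-1/Cfz cells more sensitive to carfilzomib. How the lower RNA values relate to the rate of fatty acid oxidation or to the effect of etomoxir was not tested. Called means an adjusted p under 0.05 from limma, fitted on all 54613 probe sets with Benjamini-Hochberg adjustment over all of them. Of the 19 member probe sets 5 fell, 3 of CPT1A and 2 of ACSL5, 0 rose and 14 did not pass, where over all probe sets 6.76% fell and 4.25% rose. Of the 13 probe sets of the remaining 8 genes, 0 passed in either direction. At a fold change cutoff of 1.7, without a test, 4 of the 19 probe sets were lower and 0 higher, against 1.14% and 0.452% of all probe sets. The 3 LP-1/Cfz arrays lay wholly below the 3 LP-1 arrays for 6 member probe sets and wholly above them for 4, and overlapped for 9, where 16.5% of all probe sets lay below and 14.2% above. Taken per gene, as the mean of its probe sets, 2 of 10 members fell and 0 rose, against 10% and 6.72% of 19775 genes. The median log2 fold change of the 10 members was -0.045 and that of the 8 without CPT1A and ACSL5 was 0.0098, beside a median of 0.017 over all genes.

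CPT1A, the gatekeeper of mitochondrial fatty acid entry, showed its largest difference on probe set 203633_at. Its values were -2.43, -2.44 and -3.37 on the LP-1/Cfz arrays and -0.96, -1.07 and -1.04 on the LP-1 arrays. All 3 LP-1/Cfz arrays lay below every LP-1 array, and LP-1/Cfz replicate 3 was the lowest of the 6. The log2 fold change was -1.72 (standard error 0.230, n = 3 each, adjusted p = 0.00283 by limma), a 3.31-fold lower value and the 149th largest change among all probe sets. Without LP-1/Cfz replicate 3 it was -1.41, with an adjusted p of 6.92e-05.

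Probe set 203634_s_at read -1.95, -2.04 and -1.85 in LP-1/Cfz and -0.70, -0.91 and -0.72 in LP-1. Here the arrays of each line lay close together, and the gap between the lines was wider than the range within either. CPT1A fell on it by 1.17 on the log2 scale (standard error 0.0828, n = 3 each, adjusted p = 0.000122 by limma), which is 2.26-fold lower. Probe set 210688_s_at read -1.01, -1.53 and -1.28 in LP-1/Cfz and -0.64, -0.59 and -0.45 in LP-1. The lines were again apart, with LP-1/Cfz replicate 1 nearest to the LP-1 arrays. The log2 fold change was -0.71 (standard error 0.128, adjusted p = 0.0104 by limma), a 1.64-fold lower value that stayed under the cutoff of 1.7. When the test asked for a change of more than 1.2-fold, this probe set no longer passed (adjusted p = 0.128), and the other 2 did. All 3 calls were kept in 6 of 6 fits that left out 1 array each, with highest adjusted p-values of 0.0169 for 203633_at, 0.00134 for 203634_s_at and 0.0474 for 210688_s_at.

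The last CPT1A probe set, 210687_at, did not move with the others. It read 0.019, -0.17 and -0.061 in LP-1/Cfz and -0.11, -0.17 and -0.26 in LP-1. The lines overlapped, and the means were -0.071 in LP-1/Cfz and -0.18 in LP-1. The log2 fold change of 0.11 had a 95% interval of -0.065 to 0.28 (adjusted p = 0.438 by limma), which leaves out a fall of the size seen on any of the other 3 probe sets. The gap between 203634_s_at and 210687_at was -1.88 ± 0.0854 in LP-1/Cfz and -0.60 ± 0.141 in LP-1 (SD, n = 3 each), and between 203633_at and 210687_at it was -2.68 ± 0.557 and -0.84 ± 0.0572. All 6 pairs of CPT1A probe sets had gaps that did not overlap between the lines. Their exact permutation p was 0.1 each, two-sided, the smallest that 3 against 3 arrays can give, and 0.186 after adjustment over the 13 pairs of probe sets of 1 gene. One further pair, 208630_at and 208631_s_at of HADHA, reached the same p, with a far smaller difference. Which transcripts of CPT1A the 4 probe sets read was not analysed here. The mean of all 4, the value used for CPT1A below, fell by 0.88 on the log2 scale (standard error 0.0796, adjusted p = 0.000298 over genes) and stands for a set of probe sets that disagree.

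**Figure D1:**
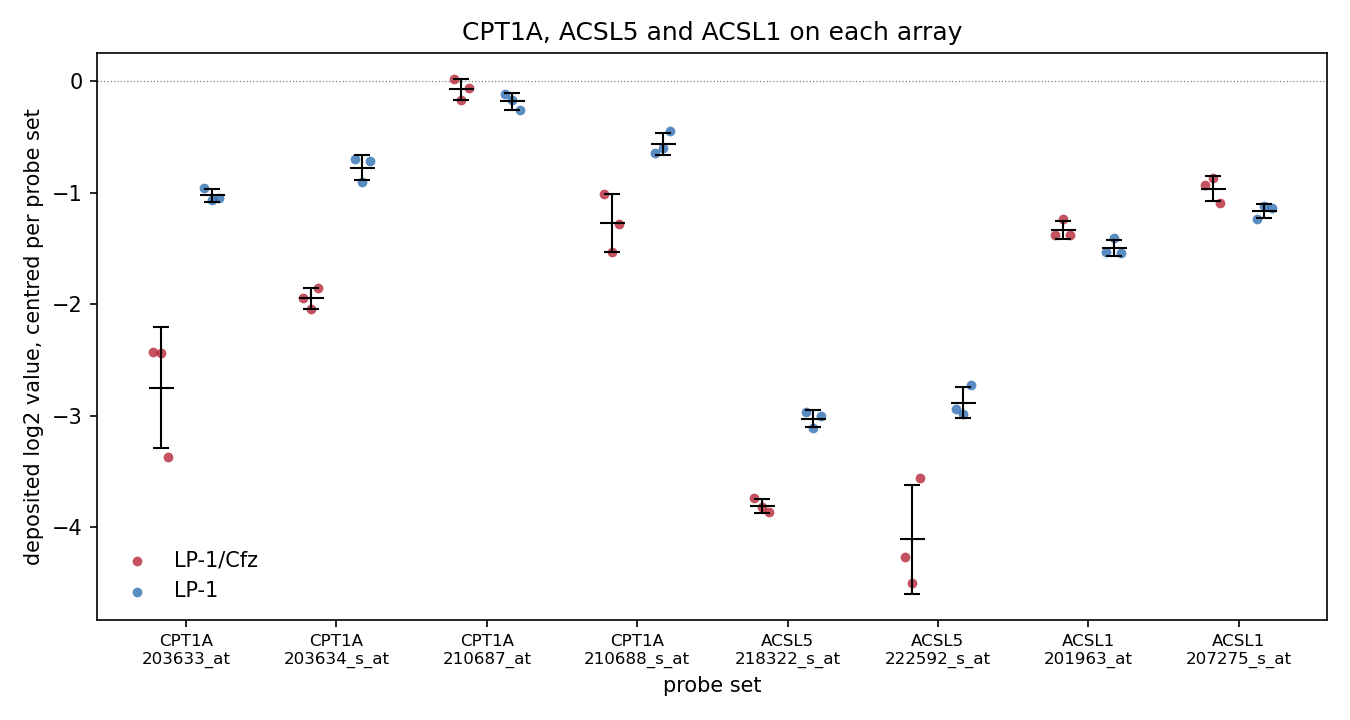
The deposited log2 value, centred per probe set, is on the vertical axis for each of the 8 probe sets of CPT1A, ACSL5 and ACSL1. Red points are the 3 LP-1/Cfz arrays and blue points the 3 LP-1 arrays, with black bars for the mean ± SD (n = 3 each). On 3 CPT1A and both ACSL5 probe sets every LP-1/Cfz point lies below every LP-1 point, the CPT1A probe set 210687_at overlaps, and ACSL1 lies slightly higher in LP-1/Cfz.

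ACSL5, an acyl-CoA synthetase of the endoplasmic reticulum and mitochondria that is best known from intestine and liver, fell on both of its probe sets. Probe set 218322_s_at read -3.74, -3.82 and -3.87 in LP-1/Cfz and -2.97, -3.11 and -3.00 in LP-1. The arrays of each line lay within a narrow band and the bands were far apart. The log2 fold change was -0.78 (standard error 0.0685, n = 3 each, adjusted p = 0.000359 by limma), a 1.72-fold lower value. Probe set 222592_s_at read -4.27, -4.50 and -3.56 in LP-1/Cfz and -2.94, -2.98 and -2.73 in LP-1. The lines did not overlap, but LP-1/Cfz replicate 3 was nearer to LP-1 here than the other resistant arrays, whereas it had been the farthest on the CPT1A probe set 203633_at. The log2 fold change was -1.23 (standard error 0.217, adjusted p = 0.00987 by limma), 2.34-fold lower, and -1.50 without that array. Both calls were kept in 6 of 6 fits with 1 array left out. The gap between both ACSL5 probe sets was 0.30 ± 0.531 in LP-1/Cfz and -0.14 ± 0.127 in LP-1 (SD, n = 3 each), with an exact permutation p of 0.4, and per gene ACSL5 fell by 1.01 on the log2 scale (standard error 0.111, adjusted p = 0.000797 over genes). After renewed quantile normalization the fall per gene was smaller, at -0.55 (adjusted p = 0.00173), with -0.32 on 218322_s_at and -0.78 on 222592_s_at, and all of these still passed.

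ACSL1, the synthetase most tied to fat storage and oxidation in fat, liver and muscle, had no such fall. Probe set 201963_at read -1.38, -1.24 and -1.38 in LP-1/Cfz and -1.53, -1.41 and -1.54 in LP-1, and 207275_s_at read -0.93, -0.87 and -1.09 against -1.23, -1.12 and -1.14. On both probe sets the resistant arrays lay above the parental ones without overlap, but the lines nearly touched, with -1.38 as the lowest LP-1/Cfz array against -1.41 as the highest LP-1 array on 201963_at, and -1.09 against -1.12 on 207275_s_at. The log2 fold changes were 0.16 (95% interval -0.0047 to 0.32, adjusted p = 0.219) and 0.20 (0.023 to 0.38, adjusted p = 0.155). Per gene ACSL1 was at 0.18 (adjusted p = 0.0962), and it passed without LP-1/Cfz replicate 3 (0.22, adjusted p = 0.0489) and after renewed quantile normalization (0.38, adjusted p = 0.00308).

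Promoter windows from RefSeq on GRCh38.p14, 250 bases before to 50 after a start site, were at hand for 9 of the 10 members, 15 windows in all, and the 4 shown are those of the 2 genes that fell and, for contrast, that of CPT2, which did not. CPT1A has 1 window, chr11:68844228-68844527 on the minus strand. ACSL5 has 2, chr10:112375018-112375317 and chr10:112375955-112376254, both on the plus strand. The CPT2 window is chr1:53196574-53196873 on the plus strand. Capitals mark every match, on either strand, to 5 short motifs: TGAGTCA (the core bound by NF-E2 and AP-1 proteins), TGACNNNGC (the core of the antioxidant response element, which can overlap the first), AGGTCA (a nuclear receptor half-site, the unit of PPAR response elements), CCAAT, and GGGCGG (the GC box).
CPT1A: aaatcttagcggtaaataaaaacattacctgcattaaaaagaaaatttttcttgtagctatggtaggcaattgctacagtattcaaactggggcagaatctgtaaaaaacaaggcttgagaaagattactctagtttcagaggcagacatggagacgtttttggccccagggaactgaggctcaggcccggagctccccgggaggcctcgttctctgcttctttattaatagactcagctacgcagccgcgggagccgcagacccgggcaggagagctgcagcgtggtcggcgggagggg
ACSL5, first window: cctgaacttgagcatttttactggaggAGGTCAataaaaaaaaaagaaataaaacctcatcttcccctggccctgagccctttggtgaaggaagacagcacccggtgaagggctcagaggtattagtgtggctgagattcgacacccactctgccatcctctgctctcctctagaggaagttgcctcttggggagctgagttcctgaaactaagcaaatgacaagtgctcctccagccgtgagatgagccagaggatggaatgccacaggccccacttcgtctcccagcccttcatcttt
ACSL5, second window: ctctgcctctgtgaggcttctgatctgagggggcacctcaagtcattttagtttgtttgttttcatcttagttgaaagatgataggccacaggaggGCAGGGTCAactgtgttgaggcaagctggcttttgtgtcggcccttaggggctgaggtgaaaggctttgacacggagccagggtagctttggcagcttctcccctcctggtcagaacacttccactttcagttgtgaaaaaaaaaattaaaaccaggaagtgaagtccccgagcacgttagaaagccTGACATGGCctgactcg
CPT2: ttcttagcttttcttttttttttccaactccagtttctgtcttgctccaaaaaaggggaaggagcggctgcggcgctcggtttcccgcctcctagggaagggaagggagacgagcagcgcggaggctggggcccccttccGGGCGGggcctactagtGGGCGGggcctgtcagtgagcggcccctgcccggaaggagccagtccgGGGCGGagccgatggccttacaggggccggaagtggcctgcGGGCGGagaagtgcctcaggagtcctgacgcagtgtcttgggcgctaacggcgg

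The CPT1A window held none of the 5 motifs, so it has no capitals. The first ACSL5 window held 1 AGGTCA, starting 223 bases before the start site, and the second held 2 matches to TGACNNNGC, the first of which starts 154 bases before the start site and the other 34 bases into the transcript. Among 35116 windows of all genes, AGGTCA was found in 13.8% and TGACNNNGC in 13.3%. CPT2 had 4 GC boxes. Of the 12 windows of the members other than CPT1A and ACSL5, 8 held a GC box, against 45.0% of all windows, with 1 box counted for both HADHA and HADHB because it lies in the bases they share. The 4 windows without one belong to ACSL1 (3 of its 5) and ACADVL (1 of its 2). By base composition the CPT1A window was 50% G and C and those of ACSL5 51% and 50%, below the median of 58.7% over all windows, and the CPT2 window was at 65.0%. A low share was not particular to the genes that fell. Windows of the other members ranged from 48% to 82.3%, both in ACSL1, and a window of ACADVL was at 52.7%. Nor was TGACNNNGC particular to ACSL5 among the members. A window of ACSL1 held 1 match, starting 236 bases before the start site, and a window of ACADVL 1, starting 4 bases into the transcript. TGAGTCA was found in 1 of the windows of ACSL1 and 1 of those of ACADVL, and in 4.95% of all windows. CCAAT was found in 1 window of ACSL1 and 34.6% of all. A match describes the letters of these windows only, and the array values bear on no single site in them.

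The remaining steps of the carnitine shuttle were slightly higher in LP-1/Cfz, and none passed the test. CPT2, the inner-membrane transferase, read 0.13, 0.12 and 0.0061 on 204264_at in LP-1/Cfz and -0.13, -0.027 and -0.14 in LP-1. The lines did not overlap, with LP-1/Cfz replicate 3 just above the highest LP-1 array. The log2 fold change was 0.18 (95% interval 0.028 to 0.34, adjusted p = 0.138), and on its second probe set, 204263_s_at, it was 0.15 with overlapping lines (adjusted p = 0.296). SLC25A20, the carnitine-acylcarnitine carrier, read 0.11, 0.044 and 0.062 in LP-1/Cfz and -0.11, -0.098 and -0.053 in LP-1. All resistant arrays lay above all parental ones, by 0.16 (95% interval 0.023 to 0.29, adjusted p = 0.141), which is a 1.12-fold difference. Per gene CPT2 was at 0.16 (adjusted p = 0.0903) and SLC25A20 at 0.16 (adjusted p = 0.0610). CPT2 passed without LP-1/Cfz replicate 3 (0.21, adjusted p = 0.0277), and with arrays weighted by their quality both did, CPT2 at 0.20 and SLC25A20 at 0.17.

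The enzymes inside the mitochondrial matrix differed little between the lines. ACADVL, the first dehydrogenase for the longest chains, read -0.0056, -0.018 and -0.045 in LP-1/Cfz and 0.17, 0.0056 and 0.14 in LP-1. The lines did not overlap, though LP-1 replicate 2 nearly touched the resistant arrays, and the log2 fold change was -0.13 (95% interval -0.28 to 0.026, adjusted p = 0.293). ACADM, the medium-chain dehydrogenase, read -0.066, -0.016 and -0.15 against -0.026, 0.11 and -0.026, and overlapped (-0.095, adjusted p = 0.461).

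HADHA, the larger subunit of the trifunctional protein, was at -0.043, -0.0025 and 0.063 on 208629_s_at, 208630_at and 208631_s_at, with adjusted p-values of 0.762, 0.987 and 0.603 and overlapping lines on each. The gap between 208630_at and 208631_s_at was 0.065 ± 0.0323 in LP-1/Cfz and 0.13 ± 0.00934 in LP-1 (SD, n = 3 each), a difference of -0.065 without overlap (exact permutation p = 0.1, adjusted p = 0.186). HADHB, its partner, was at 0.014 (95% interval -0.12 to 0.15, adjusted p = 0.918), with 0.016, 0.078 and 0.0087 in LP-1/Cfz and 0.0026, 0.029 and 0.030 in LP-1. The range over all 6 arrays was thus narrower for HADHB than for any other member probe set. In RefSeq both genes lie head to head on chromosome 2, with 306 bases between their start sites, so that their promoter windows share 194 bases. The 95% intervals of all 4 probe sets stayed between -0.20 and 0.21, so a difference of the size seen for CPT1A on its 3 lower probe sets lies outside them.

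ETFDH, which passes electrons on to ubiquinone, was at -0.12 on 205530_at (95% interval -0.28 to 0.051, adjusted p = 0.382) and -0.098 on 33494_at (-0.32 to 0.12, adjusted p = 0.586). LP-1/Cfz replicate 3 was the lowest array on both, at -0.21 and -0.29, and the lines overlapped.

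**Figure D2:**
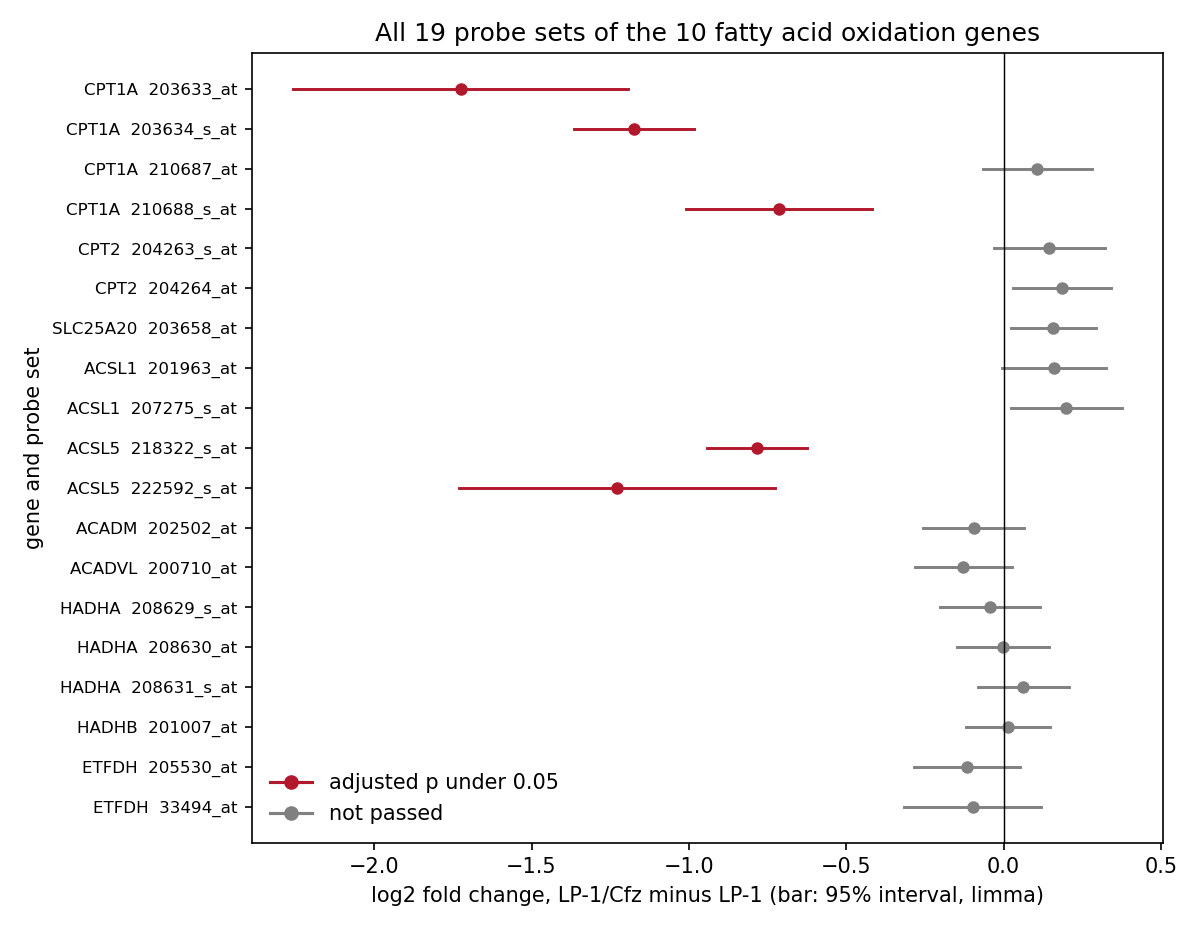
Each row is 1 of the 19 member probe sets, in the order in which the genes were first listed. The horizontal axis is the log2 fold change of LP-1/Cfz over LP-1, with the 95% interval from limma as a bar. The 5 red rows, with adjusted p under 0.05, are 3 of CPT1A and both of ACSL5, from -1.72 to -0.71, and the 14 grey rows lie between -0.13 and 0.20.

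Across genes, ACSL5 and CPT1A had the 186th and 254th largest changes of 19775, and the 150th and 197th lowest values. Both fell in the same lines, but their gene-level means were not in step within LP-1/Cfz. Per gene CPT1A read -1.34, -1.55 and -1.64 in LP-1/Cfz and -0.60, -0.68 and -0.62 in LP-1, and ACSL5 -4.01, -4.16 and -3.71 against -2.95, -3.05 and -2.86. LP-1/Cfz replicate 3 was thus the lowest resistant array for CPT1A and the highest for ACSL5. The correlation of both over the 6 arrays was r = 0.922, which placed ACSL5 1897th among 19774 genes in likeness to CPT1A, and ACADVL followed among the members at 0.821. SLC25A20, ACSL1 and CPT2 ran opposite to it at -0.888, -0.799 and -0.754. These values rest on 6 arrays in 2 groups, which alone gives a gene with separated groups a high r, and they are a description.

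The genes whose pattern was most like that of CPT1A, by Pearson's r over the 6 arrays, were MLEC (0.999), a lectin of the endoplasmic reticulum that binds immature glycoproteins, SEC23IP, CEP78, KEAP1 and FSAF1, with r of 0.999 or just under. They changed much less than CPT1A, with log2 fold changes of -0.33 for MLEC, -0.24 for SEC23IP, -0.21 for CEP78, -0.26 for KEAP1 and -0.25 for FSAF1, and each passed the test over genes, SEC23IP in 4 and CEP78 in 2 of the 6 fits with 1 array left out. KEAP1 is the adaptor that brings the transcription factor Nrf2 to its ubiquitin ligase. For its protein, which the arrays do not read, the paper reports no reduction in LP-1/Cfz against LP-1. The mirror image of CPT1A was closest in ARHGAP22 (-0.996), SNX24 (-0.996), TGFA (-0.995), FAM201A (-0.995) and FUCA1 (-0.994), of which TGFA, a growth factor of the EGF family, rose by 0.35, FAM201A by 0.42 and FUCA1, a lysosomal fucosidase, by 0.26. At a looser limit, 1328 of 19774 genes had an r of 0.95 or more and 405 an r of -0.95 or less.

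The fall of CPT1A was not shared by the genes beside it on chromosome 11. Of the 5 measured genes on each side in RefSeq order (C11orf24, LRP5, PPP6R3, GAL, TESMIN, MRPL21, IGHMBP2, MRGPRF, MRGPRF-AS1 and TPCN2), 0 were called in either direction. Their median log2 fold change was 0.039, and the lowest was MRPL21 at -0.15 (adjusted p = 0.0997). ACSL5 on chromosome 10 had 3 lower genes among its 10 neighbours, SHOC2 (-0.26), ZDHHC6 (-0.33) and VTI1A (-0.24), and 0 higher, each with a smaller change than ACSL5 itself, and these were named after their values had been seen. VTI1A kept its call in 4 of 6 fits with 1 array left out, and SHOC2 and ZDHHC6 in 6 of 6. Around the other members 0 to 2 of 10 neighbours were lower and 0 or 1 higher. Read against the share of all genes that fell (10%), 3 of 10 is a count over few genes and was not tested.

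**Figure D3:**
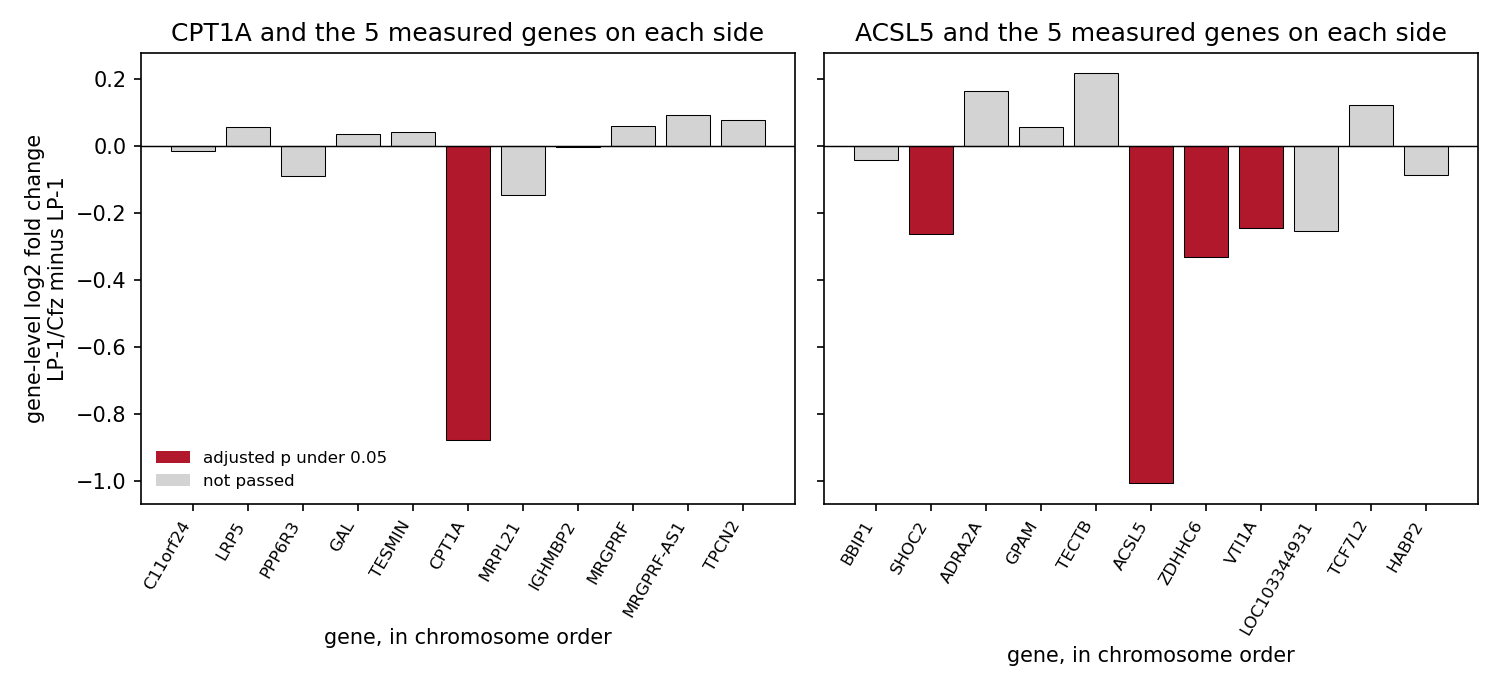
Bars are gene-level log2 fold changes of LP-1/Cfz over LP-1 for CPT1A (left) and ACSL5 (right) with the 5 measured genes on each side, in chromosome order, red where the adjusted p was under 0.05. CPT1A at -0.88 stands alone among grey neighbours between -0.15 and 0.091, while SHOC2, ZDHHC6 and VTI1A are red beside ACSL5 at -1.01.

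Of 143 further genes of fatty acid metabolism, sorted into 9 lists by role, 15 rose, 21 fell and 107 did not pass the test over genes, with a median log2 fold change of -0.0016. These shares may be read against the 6.72% and 10% of all genes. In the list for carnitine and acyl-CoA supply, 2 of 16 measured genes rose and 2 fell. ACSM3, a medium-chain acyl-CoA synthetase of mitochondria, had the largest change among the members and the 143 genes and fell by 1.79 on the log2 scale (standard error 0.0543, adjusted p = 1.09e-06 by limma), on both of its probe sets (-1.75 and -1.83). Its group means were -1.21 and -1.62 in LP-1/Cfz and 0.54 and 0.21 in LP-1. ACSL4, the synthetase that favours arachidonic acid, rose by 0.44 (adjusted p = 0.00527). Among the ACSL genes with a value here, ACSL5 fell, ACSL4 rose and ACSL1 and ACSL6 did not pass, and no value is given for ACSL3. ACSL6, named after its value had been seen, was at 0.020 (adjusted p = 0.876 by limma). TMLHE, the first enzyme of carnitine synthesis, rose by 0.42 (adjusted p = 0.00390), on 2 of its 3 probe sets, and ACBD3, a Golgi protein with an acyl-CoA binding domain, fell by 0.33 (adjusted p = 0.00771). CPT1C, a relative of CPT1A known from neurons, was at -0.080 (adjusted p = 0.452) and was named after its value had been seen.

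Beyond the members, 2 of 22 measured genes of mitochondrial beta-oxidation rose and 3 fell, by 0.37 or less. ACOT13, a thioesterase that releases fatty acids from coenzyme A, rose by 0.37 and ECI2, an enoyl-CoA isomerase for unsaturated chains, by 0.35. ETFB, a subunit of the flavoprotein that hands electrons to ETFDH, fell by 0.31 (adjusted p = 0.00688), ACAD8, a dehydrogenase of valine breakdown, by 0.27, and ECHS1, the short-chain enoyl-CoA hydratase, by 0.18. ECHS1 was called in 1 of 6 fits with 1 array left out and ACAD8 in 2 of 6. In the limma fit over probe sets, the only probe set of ECHS1 did not pass (adjusted p = 0.0805), nor did that of ACAD8 (adjusted p = 0.0544).

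In the peroxisome, where very long chains are shortened before they reach the mitochondrion, 4 of 17 genes rose and 1 fell. PEX5 and PEX7, the receptors that bring enzymes into the peroxisome, rose by 0.40 and 0.23, PHYH, which oxidizes the branched phytanic acid, by 0.30, and ABCD2, a transporter of very long-chain acyl-CoA, by 0.28. ACAA1, the peroxisomal thiolase, fell by 0.24. PEX7 and ABCD2 were called in 1 of 6 fits with 1 array left out, and ACAA1 in 4 of 6, and no single probe set of PEX7, ABCD2 or ACAA1 passed.

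Uptake and storage genes moved in both directions. Of 16 uptake and binding genes 2 rose, SLC27A3, a fatty acid transport protein, by 0.56 and CAV1, the main protein of caveolae, by 0.52, and FABP6, a bile acid binding protein of the ileum, fell by 0.38 as a mean of 3 probe sets that disagreed. Of these 210445_at fell by 1.30 (adjusted p = 0.000145), and the other 2 were at 0.079 and 0.068 with overlapping lines. Of 21 genes of lipid droplets and lipolysis, FITM2, which helps droplets to form, rose by 0.41 and MGLL, the monoglyceride lipase, by 0.30, while ABHD5, the activator of the main triglyceride lipase, fell by 0.28. For MGLL 1 of 2 probe sets passed, and for ABHD5 1 of 4, at -0.57. MGLL was called in 1 of 6 fits with 1 array left out. HILPDA, an inhibitor of that lipase, had a larger log2 fold change of 0.81 on average over its probe sets (0.88 and 0.75) but did not pass (adjusted p = 0.0503), and was named after its value had been seen. It read 1.34, 1.61 and 1.16 in LP-1/Cfz and 0.70, 0.0025 and 0.97 in LP-1, with LP-1 replicate 2 far below its group. Without that array the log2 fold change was 0.53 (adjusted p = 0.0636), and without LP-1 replicate 3 it was 1.02 and passed (adjusted p = 0.0265).

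CPT1A is held in check by malonyl-CoA, which AMPK lowers through acetyl-CoA carboxylase. In the list for malonyl-CoA control and AMPK, 2 of 17 genes rose and 4 fell. ACACA, the carboxylase that makes malonyl-CoA in the cytosol, rose by 0.27 (adjusted p = 0.00844), with 1 of 2 probe sets passing. ACACB, the carboxylase at the mitochondrial surface, and MLYCD, which breaks malonyl-CoA down, were at -0.23 (adjusted p = 0.0617) and -0.24 (adjusted p = 0.0609), with lines that did not overlap, and were named after their values had been seen. Both are means of probe sets that differed. For ACACB 2 of 7 probe sets fell, 49452_at by 0.67 (adjusted p = 0.00612) and 43427_at by 0.54 (adjusted p = 0.0380). Probe set 221928_at was at -0.44 without overlap but did not pass (adjusted p = 0.0758 by limma). The remaining 4 lay between -0.051 and 0.13 with overlapping lines. For MLYCD 218869_at fell by 0.36 (adjusted p = 0.00539), while 230530_at was at -0.11 and overlapped. Per gene MLYCD passed without LP-1/Cfz replicate 2 (-0.30, adjusted p = 0.0268). The 2 beta subunits of AMPK moved apart, PRKAB1 falling by 0.46 (adjusted p = 0.000871) and PRKAB2 rising by 0.31 (adjusted p = 0.0108). CAMKK2, a kinase that activates AMPK, fell by 0.31, CAB39, a partner of the AMPK kinase LKB1, by 0.21, and SIRT1, a deacetylase, by 0.43. CAB39 was called in 3 of 6 fits with 1 array left out, and neither of its probe sets passed alone.

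Of 19 measured PPAR and PGC-1 regulators 0 rose and 6 fell. PPRC1, a coactivator related to PGC-1 that serves mitochondrial gene expression, fell by 0.68 (standard error 0.0720, adjusted p = 0.000624 by limma), MED1, a mediator subunit that binds nuclear receptors, by 0.35, TFAM, the transcription factor of mitochondrial DNA, by 0.31, NRF1, which drives nuclear genes for mitochondria, by 0.31, and CREBBP, an acetyltransferase, by 0.23. CREBBP kept its call in 4 of 6 fits with 1 array left out, and 1 of its 4 probe sets passed, at -0.46. The receptors PPARA, PPARD and PPARG, named after their values had been seen, were at -0.046, 0.043 and 0.14 (adjusted p = 0.604, 0.704 and 0.292), with overlapping lines. Among 19 known PPAR target genes, 0 rose and 2 fell, CPT1A itself and UCP2, a carrier of the inner mitochondrial membrane, by 0.56 (adjusted p = 0.000261). In ketone body metabolism 1 of 7 genes rose, OXCT1, by 0.25, and 2 fell, BDH1, by 0.42, and ACAT2, by 0.23, the last called in 3 of 6 fits with 1 array left out. OXCT1 serves the use of ketone bodies and BDH1 links its 2 main forms.

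**Figure D4:**
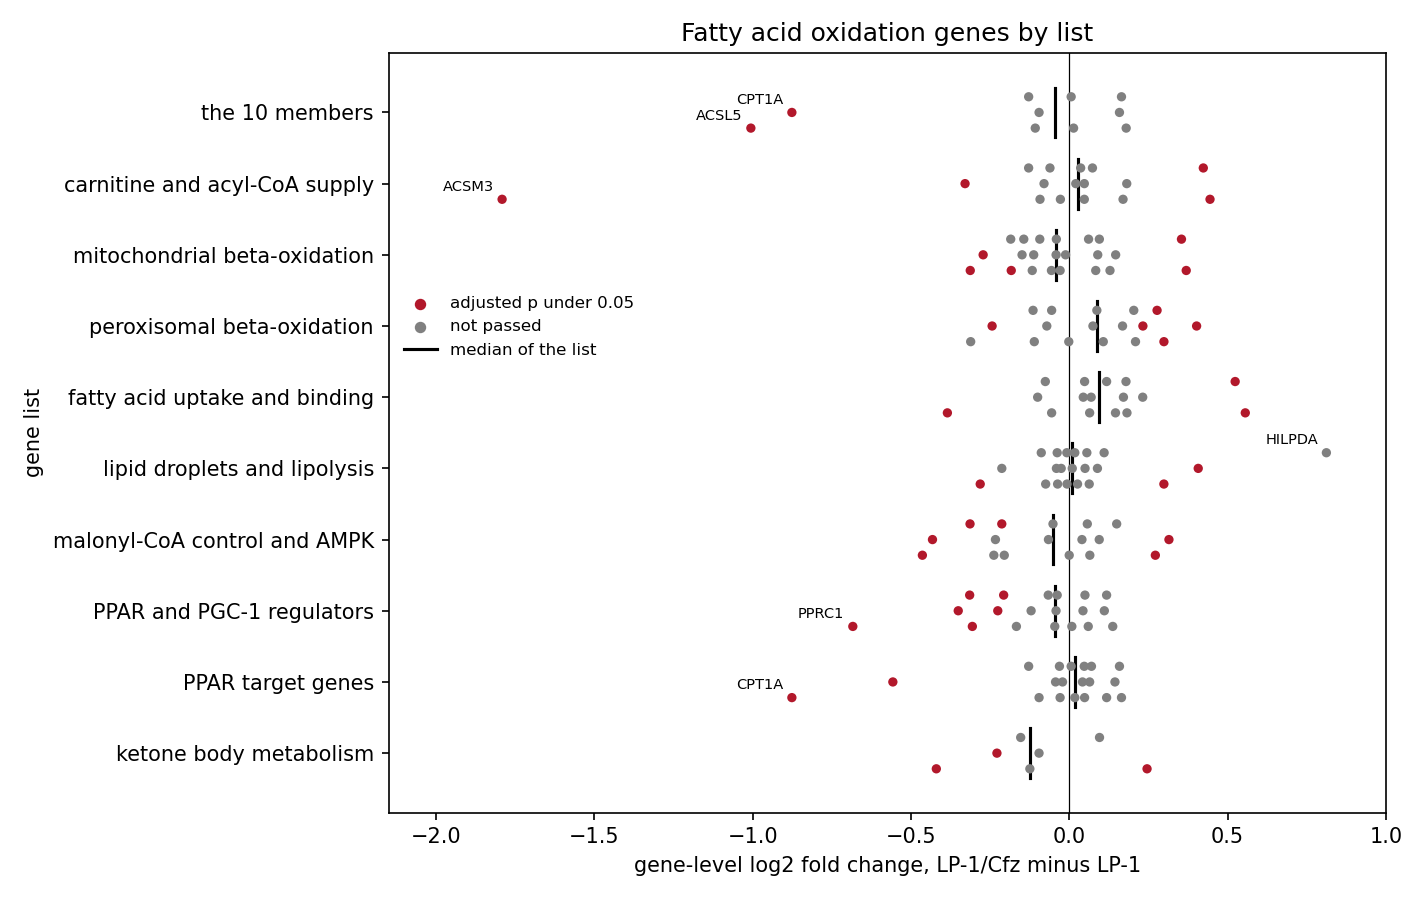
Every point is a gene, placed by its gene-level log2 fold change of LP-1/Cfz over LP-1, in rows for the 10 members and 9 further lists, red where the adjusted p was under 0.05, with a black line at each list's median. CPT1A (in 2 rows), ACSL5 and ACSM3 lie far to the left at -0.88, -1.01 and -1.79, and HILPDA at 0.81 is far to the right without passing the test.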

How the data were processed

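RNA of 3 LP-1/Cfz and 3 LP-1 samples was hybridised to Affymetrix arrays. The deposited values are log2 values of 54613 probe sets, for which the submitters' notes name RMA, with no version given. They are centred per probe set on an unstated baseline. Scale and direction were checked against 174 fold changes printed by the study, all within 0.015. Of the probe sets, 41091 name 1 gene by the array's annotation, 1801 several and 11721 none, and 41037 of the 41091 matched RefSeq by gene ID. Near-identical genes can share probes.

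The lines were compared by limma 3.58.1 in R 4.3.3 (lmFit, eBayes, no covariate, two-sided), with Benjamini-Hochberg adjustment over 54613 probe sets or over 19775 genes, each gene being the mean of its single-gene probe sets. The fit was tested on simulated data. No sample was left out, and 0 columns belonged to other samples. The number of arrays limits the precision. The members and lists were chosen with earlier results of these data known. By rule, the text names all members, in each list up to 5 called genes in each direction with the largest change, the 5 genes most like CPT1A and its mirror image, and its neighbours. The alternatives were renewed quantile normalization, centring of arrays, array weights, robust moderation, a replicate block, a minimum fold, filters, other summaries per gene and leaving out each array.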

Additional observations from a re-analysis of the deposited data

How the results depend on the processing

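The falls of CPT1A and ACSL5 were kept per gene in every setting run, and the count of 5 lower member probe sets was 4 with a minimum fold change of 1.2 and at the untested cutoff of 1.7, and 5 in the other settings run. The count of higher members was not stable. Per gene it was 0, but 1 after renewed quantile normalization, 3 with array weights and 0 to 2 with 1 array left out, the 2 without LP-1/Cfz replicate 3. For probe sets it was 0, but 2 after renewed quantile normalization, both of ACSL1 (0.39 and 0.38, adjusted p = 0.0106 and 0.00979). The cause was not tested.

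Values near 0 changed sign. HADHA per gene was 0.0059, but -0.0034 with each array centred on its median, -0.016 with the median of its probe sets, -0.0025 with only plain _at probe sets and -0.021 to 0.036 with 1 array left out. Its probe set 208630_at was at 0.0027 after renewed quantile normalization, 0.0041 with array weights and -0.028 to 0.028 with 1 array left out. Probe set 208629_s_at ranged between -0.085 and 0.0049, and HADHB, on its probe set and per gene, between -0.0084 and 0.026.

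The replicate numbers did not pair the samples: the deviations of same-numbered arrays correlated at -0.0487, 0.126 and -0.00556. With a replicate block 5 member probe sets fell and 0 rose, and of the other pathway genes 13 rose and 17 fell, against 15 and 21. With 1 array left out these were 12 to 15 and 14 to 22. Over all probe sets, 2323 rose and 3691 fell, but 443 and 869 with a minimum fold change of 1.2, and 1291 to 2356 and 2062 to 3081 with 1 array left out. With values centred per probe set, signal over background limits each fold change by an unknown amount.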
